A study of Mus musculus with 39 samples.

Results

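Complexes II to V of the mitochondrial respiratory chain are built from nuclear genes whose symbols were used to choose the genes described here. Taken were Sdha to Sdhd for complex II, Cyc1 and symbols starting with Uqcr for complex III, symbols starting with Cox4i, Cox5, Cox6, Cox7 or Cox8 for complex IV, and symbols starting with Atp5 for complex V. Pseudogenes and factors outside the enzymes were left out (6 rows in the female table, 9 in the male table). This gave 48 of 46333 rows in the female table and 48 of 54532 rows in the male table, with 4 in complex II, 9 in complex III, 18 in complex IV and 17 in complex V. The male rows carry 47 symbols, because Atp5o has a second row with 0 reads in every library. Atp5pb in the female table is Atp5f1 in the male table, and Atp5md is listed by that symbol in the female table only. The male table holds Atp5md as Usmg5, which the naming rule did not take.

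Complex II passes electrons from succinate to ubiquinone, complex III passes them on to cytochrome c, and complex IV hands them to oxygen. Complexes III and IV pump protons, and complex V (ATP synthase) uses the proton gradient to make ATP. Several complex IV subunits exist as a form found in most tissues and as a second form of heart and skeletal muscle, lung or testis, and microglia that respond to amyloid are known to shift their energy metabolism.

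RNA was measured in CD11b+ microglia, collected with magnetic beads from the cerebrum of wild-type (WT, C57Bl6 in the labels) and 5XFAD mice. The study's methods describe a cross of C57BL/6J females with 5XFAD males of a B6SJL line. 5XFAD mice carry human amyloid transgenes with familial mutations under the neuronal Thy1 promoter. From 4 months of age the mice lived in normoxia (NX, 21% O2) or were given chronic intermittent hypoxia (CIH), in which O2 alternated every 90 s between 21% and 6.5% for 8 h a day during sleep, as the labels give it. Females were 10 months old (4 libraries in WT NX and 5 in each of the other groups) and males were 8 months old (5 libraries per group). The 2 tables were made separately and the ages differ, so the sexes were not tested against each other.

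Female libraries held 14731683 to 25906121 counts each and male libraries 13457293 to 23095627, and the chosen genes took 0.212% to 0.386% of them in females and 0.264% to 0.651% in males. The microglia markers summed to 23774 to 36549.9 CPM (counts scaled to the library total) in every library, and the neuron markers to at most 17.3. Astrocyte markers had group medians of 152 to 213 CPM in WT and 323 to 509 CPM in 5XFAD, and border macrophage markers were lower in 5XFAD. One female library, 5XFAD NX 4, went against its label in genes that plaque-associated microglia switch on (named after their values were seen). Its Cst7 was at 16.2 CPM, against 7.74 to 17.3 in the WT females and a median of 2027 in 5XFAD NX. Its P2ry12 was at 2664 CPM, between the WT females (2825 to 3967) and the rest of 5XFAD NX (1464 to 2033). The paper reports that a female normoxia sample was an outlier in several comparisons, and its text does not name the sample. Male 5XFAD NX 4 and 5 stood apart in another way: their Cst7 was at or above 1851 CPM, against at most 26.9 in WT males, but their respiratory genes lay near the WT NX level. Mean log2 CPM over the chosen genes was 5.29 and 5.21 in these 2 libraries, 5.13 to 5.63 in WT NX and 6.29 to 6.40 in the other 3 5XFAD NX males. The slope of expression on gene length (log2 units per 10-fold length) was 0.542 in female 5XFAD NX 4, against −0.23 to 0.26 in the other females. It was 0.27 and 0.29 in male 5XFAD NX 4 and 5, against −0.22 to −0.07 in the other 3 5XFAD NX males. The NX results rest on these libraries. Fits with each library's trend on gene length removed are given below, and the part of this slope was not tested further. The main NX results are given with and without them. The 2 male libraries were set apart by their values in the chosen genes themselves. Leaving them out therefore raises the male NX difference by the way they were picked, and those fits are descriptions.

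CPM values are scaled by edgeR's TMM factors, and the sign of a log2 fold change (log2FC) is that of the second group named minus the first. Fold changes are given ± SE. Tested were genes that exceeded 1 CPM in 3 or more of the libraries compared, with edgeR's quasi-likelihood test, and every adjusted p is from that test with the Benjamini-Hochberg adjustment over all genes tested, unless another tool is named. A gene was called at an adjusted p (FDR) below 0.05, and a differentially expressed gene (DEG) also had a log2FC above 1 or below −1. In bulk RNA fewer cells of a type and less RNA per cell cannot be told apart.

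The largest log2FC between the genotypes among the tested subunits was that of Cox6a2, the heart and skeletal muscle form of subunit 6a of complex IV. Females had 2.5, 3.01, 4.3 and 3.22 CPM in WT NX against 63.9, 63.1, 46.3, 2.15 and 74.4 in 5XFAD NX, and 3.25, 2.67, 2.34, 2.88 and 2.32 in WT CIH against 74.5, 51.7, 43.2, 99 and 68.9 in 5XFAD CIH. The 5XFAD libraries lay far above every WT library, apart from 5XFAD NX 4, which lay below all WT NX libraries. Males had 4.52, 6.02, 3.55, 4.56 and 5.68 CPM in WT NX against 111, 126, 101, 48.5 and 47.6 in 5XFAD NX, and 3.19, 1.73, 0.834, 2.26 and 1.95 in WT CIH against 85.3, 78.9, 117, 116 and 223 in 5XFAD CIH. No male 5XFAD library came near the WT range, and the 2 that stood apart (the last pair of 5XFAD NX values) had the lowest 5XFAD values. The log2FC of 5XFAD over WT was 3.94 ± 0.78 (adjusted p = 0.0193) in NX females and 4.25 ± 0.19 (adjusted p = 1.25e-06) without 5XFAD NX 4. In CIH females it was 4.66 ± 0.23 (adjusted p = 4.82e-09). The male values were 4.16 ± 0.31 (adjusted p = 1.58e-06) in NX, 4.54 ± 0.16 (adjusted p = 5.39e-11) in NX without 5XFAD NX 4 and 5, and 5.96 ± 0.35 (adjusted p = 9.14e-09) in CIH. CIH lowered Cox6a2 in WT males, with a log2FC of −1.28 ± 0.32 (adjusted p = 0.00787), and it was the only DEG among the chosen genes in that comparison. That call was lost with all 4 male groups in one fit and with the length trend removed. The difference between the male genotype effects in CIH and NX was 1.79 ± 0.47 (adjusted p = 0.117), which did not pass.

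Cox6a1, the form of the same subunit in most tissues, rose as well, with smaller fold changes. It was at 83.1, 66.3, 83.5 and 62.3 CPM in WT NX against 187, 155, 103, 48.8 and 182 in 5XFAD NX, and 60.2, 58.9, 71.6, 71.2 and 80.7 in WT CIH against 194, 136, 144, 156 and 157 in 5XFAD CIH in females. In males it was at 79.4, 81.2, 76.6, 137 and 105 CPM in WT NX against 309, 222, 290.0, 112 and 107 in 5XFAD NX, and 55.7, 56.6, 53.5, 59 and 57 in WT CIH against 214, 163, 239, 248 and 491 in 5XFAD CIH. The male WT CIH values were the lowest and the tightest of the male groups, and 5XFAD CIH 5 was the highest library. The log2FC was 1.21 ± 0.11 (adjusted p = 8.94e-07) in CIH females and 2.27 ± 0.23 (adjusted p = 1.83e-06) in CIH males. In NX it was 0.87 ± 0.33 (adjusted p = 0.0983) in females, which did not pass, and 1.12 ± 0.30 (adjusted p = 0.0204) in males. Without the libraries that stood apart, both NX values passed, at 1.07 ± 0.18 (adjusted p = 0.00107) and 1.51 ± 0.17 (adjusted p = 8.47e-06).

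Because both forms take the same place in the enzyme, their balance was also read within each library, where scaling between libraries plays no part. From the deposited FPKM (reads scaled to gene length and library size), Cox6a2 made up 3.51% ± 0.776 (SD, n = 4) of the Cox6a total in WT NX females and 3.18% ± 0.765 (n = 5) in WT CIH females. In 5XFAD females it made up 20.4% ± 9.65 under NX and 25.6% ± 5.38 under CIH (n = 5 each). Without 5XFAD NX 4, which had 3.48%, the female 5XFAD NX share was 24.7% ± 2.09 (n = 4). In males the share was 5.17% ± 1.39 in WT NX and 30.6% ± 4.23 in 5XFAD NX, and it was 3.49% ± 1.44 in WT CIH and 32.1% ± 1.76 in 5XFAD CIH (n = 5 each). The 5 male 5XFAD NX libraries lay between 26.4% and 36.9%, so the 2 that stood apart in their overall level kept a 5XFAD share.

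**Figure D1:**
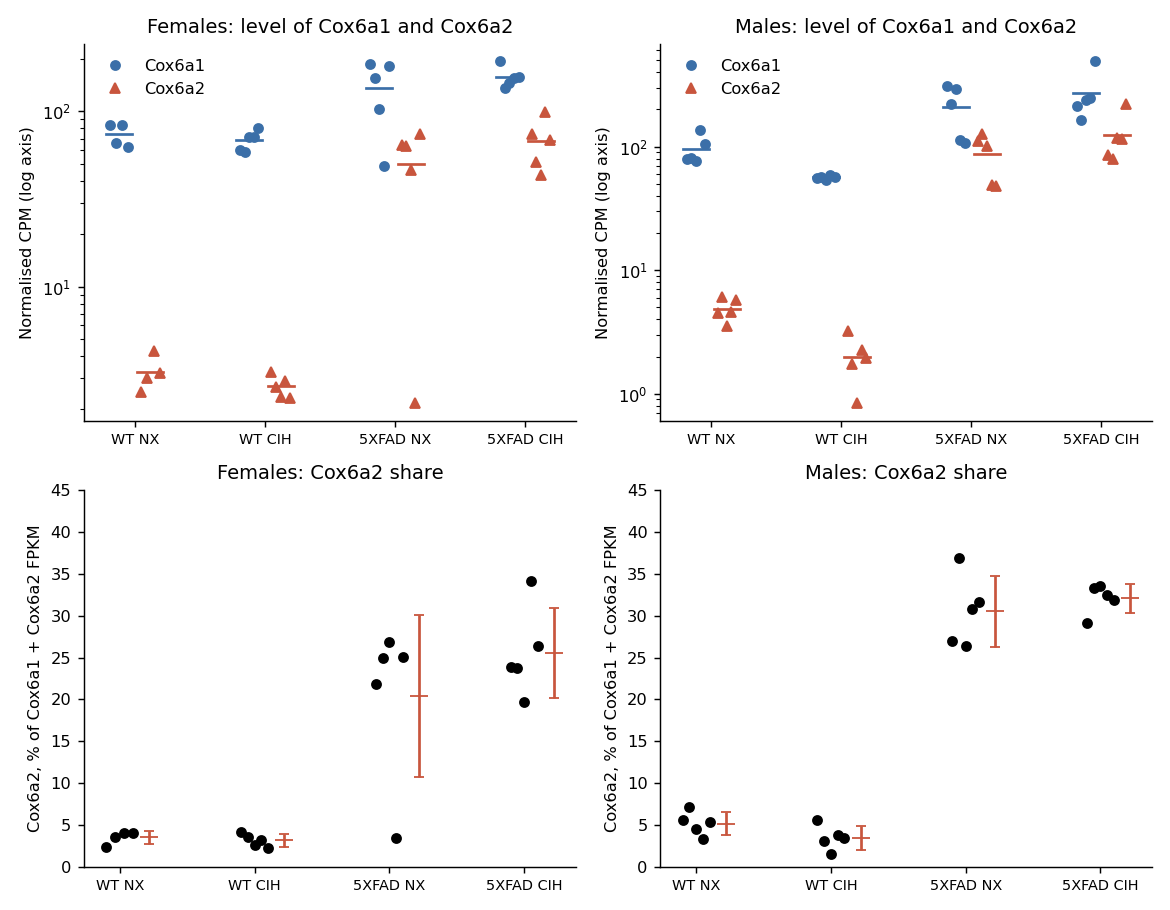
Top, TMM-scaled CPM (log axis) of Cox6a1 (circles) and Cox6a2 (triangles) in each library of the 4 groups, with the group mean as a line, for females (left) and males (right). Bottom, Cox6a2 as a percent of the Cox6a1 and Cox6a2 FPKM of each library, with mean ± SD beside the points; 5XFAD libraries sit at 19.7% or more and WT libraries at 7.11% or less, apart from female 5XFAD NX 4 at 3.48%.

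Cox6a2 lies at chr7:128205435-128206387, minus strand of GRCm38, inside the span of Itgad (chr7:128154376-128223816, plus strand), and Itgax (chr7:128129547-128150657, plus strand) ends 54778 bases away. Both encode alpha chains of leukocyte integrins, and Itgax is the CD11c gene that plaque-associated microglia switch on. The neighbours were looked up after the Cox6a2 values were seen. Within 100000 bases on either side there were 15 other annotated genes, and 7 of them could be tested in CIH males. Itgax had a log2FC of 4.85 ± 0.15 (adjusted p = 4.72e-11) in CIH females and 5.32 ± 0.18 (adjusted p = 2.77e-11) in CIH males, close in size to that of Cox6a2. Itgad, the gene that overlaps Cox6a2, stayed at 1.68 ± 0.305 CPM (SD, n = 5) in 5XFAD CIH females and 0.768 ± 0.618 CPM in 5XFAD CIH males. Its log2FC was 0.89 ± 0.29 (adjusted p = 0.0193) and 0.67 ± 0.83 (adjusted p = 0.526). Itgam, the CD11b gene on the far side of Itgax, had 0.06 ± 0.07 (adjusted p = 0.484) and 0.05 ± 0.13 (adjusted p = 0.779). On the other side of Cox6a2, Armc5 had 0.00492 ± 0.07 (adjusted p = 0.963) and 0.34 ± 0.14 (adjusted p = 0.0565). Whether the authors' counting used strand is not given in the sources used here, so reads of Cox6a2 and of Itgad on the opposite strand cannot be told apart by count alone. Pericyte and smooth muscle markers, from vessel cells that can hold muscle-type genes, had higher sums in 5XFAD group medians. All 6 were in the tables and none was at 0 in every library. Their sum had group medians of 13.3 to 33.3 CPM in WT (libraries 7.69 to 60.7) and 86.7 to 117 CPM in 5XFAD (libraries 13.6 to 157). Their part in the Cox6a2 result was not tested.

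The other second forms stayed low in every group, and all but Cox6b2 were near silence. Cox7b2 and Cox8c, forms of the testis, had at most 4 and 7 reads in any library. Cox4i2, the lung form that oxygen shortage is known to induce in some cells, was at 1.08 CPM or less in females and 2.70 or less in males, and made up 0.320% ± 0.208 (SD, n = 5) of the Cox4i FPKM in 5XFAD CIH males, where the WT CIH males had 0.635% ± 0.588. The muscle forms Cox7a1 and Cox8b reached at most 1.89 and 2.01 CPM. Cox6b2, a testis form, was at 0.915 to 4.98 CPM. Its log2FC was −0.29 ± 0.26 (adjusted p = 0.363) in CIH females and 0.41 ± 0.36 (adjusted p = 0.371) in CIH males. Cox7a1 had 0.00385 ± 0.69 (adjusted p = 0.997) in CIH males. Cox7b2 and Cox8c never passed the filter on low values, and of the tissue-restricted forms that did, Cox6a2 alone was called in any comparison.

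In CIH-exposed females (WT CIH vs 5XFAD CIH), 43 of the 48 genes passed the filter on low values and 41 were called higher in 5XFAD, against 26.2% of all 14911 genes tested. All 4 complex II genes, 8 of 9 of complex III, 12 of 13 of complex IV and 17 of 17 of complex V were called. None was lower, Uqcrb had 0.34 ± 0.15 (adjusted p = 0.0695), and Cox6b2 was the only one with a negative value. The median log2FC was 0.73 (a fold of 1.66), against −0.02 for all genes tested. By complex it was 0.30 in II, 0.58 in III, 1.07 in IV and 0.69 in V. The DEGs numbered 10 of 43, against 8.83% of all genes, with 7 in complex IV, 1 in complex III and 2 in complex V. In 35 genes every 5XFAD library was above every WT library, against 18.8% of all genes. Cell type markers moved with these groups. The microglia markers summed to 28904 to 33573 CPM in WT CIH and 25993 to 28869 CPM in 5XFAD CIH females, and the endothelial markers to 56.5 to 133 and 167 to 245 CPM, neither with overlap. Nor was there overlap in the astrocyte markers (160.1 to 199.7 and 227 to 643 CPM), the pericyte and smooth muscle markers (7.69 to 40.4 and 94.4 to 157 CPM) or the border macrophage markers (134 to 282 and 64.8 to 123 CPM, lower in 5XFAD). The oligodendrocyte markers summed to 88.7 to 253 and 159 to 381 CPM, with overlap. The part of these cells in the result was not tested.

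In CIH-exposed males (WT CIH vs 5XFAD CIH), again 43 genes were tested and 41 were higher in 5XFAD (25.3% of 14793 genes tested), and 29 were DEGs (11.8% of all genes). The DEGs were 5 of complex III, 12 of complex IV, 12 of complex V and none of the 4 of complex II. All 43 values were positive, with a median log2FC of 1.43 (a fold of 2.70), against −0.06 for all genes. The medians were 0.68 in complex II, 1.25 in III, 1.64 in IV and 1.34 in V. In 40 genes the 2 groups did not overlap, against 19.4% of all genes. In these males the pericyte and smooth muscle markers summed to 9.89 to 31.9 CPM in WT CIH and 69.1 to 106 CPM in 5XFAD CIH, and the border macrophage markers to 134 to 299 and 92.5 to 174 CPM. The astrocyte markers ran from 156 to 225 CPM in WT CIH and from 221 to 607 CPM in 5XFAD CIH. The pericyte sums did not overlap, while the border macrophage, astrocyte, microglia, endothelial and oligodendrocyte sums did, and the part of these cells was not tested. Removing the trend on gene length left median values of 0.43 in females and 0.98 in males, and scaling by library size alone left 0.53 and 1.03. Ribosomal protein genes took 1.24% to 1.52% of counts in WT CIH and 2.16% to 3.51% in 5XFAD CIH females. In males they took 1.54% to 1.68% and 3.91% to 6.19%. The genotypes did not overlap in either sex, and the part of these genes was not tested.

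**Figure D2:**
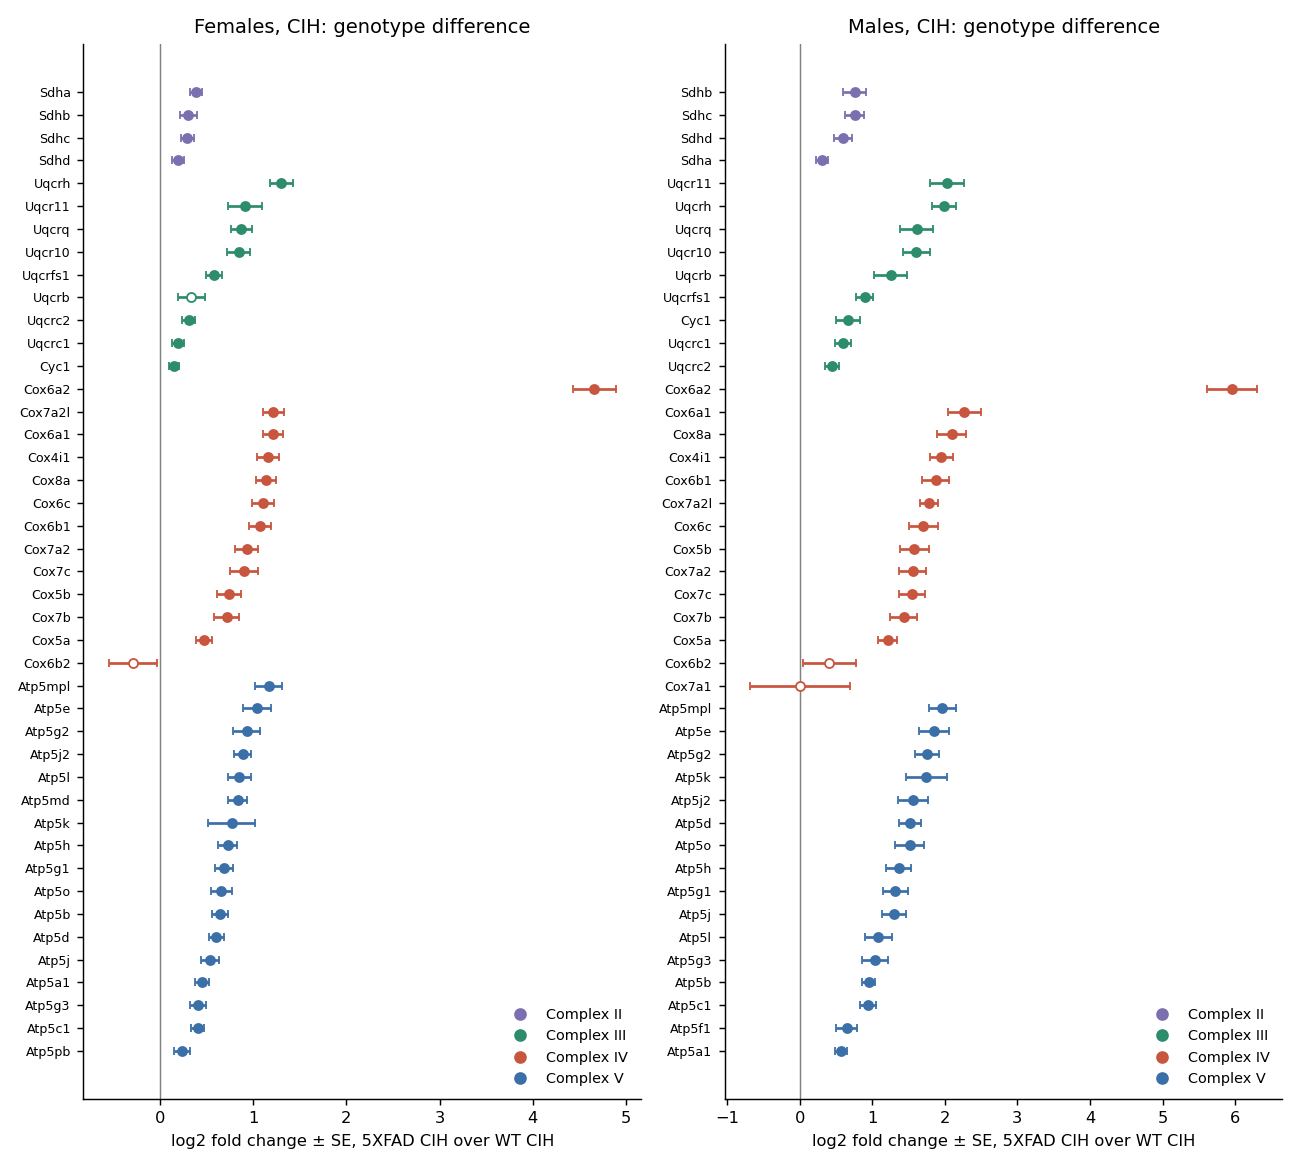
log2 fold change ± SE of 5XFAD CIH over WT CIH for each tested gene, females left and males right, coloured by complex and sorted by size within it; filled points passed FDR 0.05 and open points did not. Cox6a2 stands far right at 4.66 and 5.96, and the complex II genes lie between 0.19 and 0.76.

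Within complex II the values were small. Sdha, the flavoprotein that oxidizes succinate, was at 161, 154, 150.5, 163 and 161 CPM in WT NX against 161, 199.6, 209.6, 186 and 180.2 in 5XFAD NX, and 146, 162, 151, 144 and 154 in WT CIH against 192, 177, 189, 177 and 195 in 5XFAD CIH in males. The 2 CIH groups did not overlap. Its log2FC was 0.39 ± 0.06 (adjusted p = 2.57e-04) in CIH females and 0.31 ± 0.08 (adjusted p = 0.00428) in CIH males, where scaling by library size alone turned it to −0.07. Sdhb, the iron-sulfur subunit, had 0.31 ± 0.09 (adjusted p = 0.014) in CIH females and 0.76 ± 0.16 (adjusted p = 0.00127) in CIH males. Its male values were 67.3, 70.1, 69.7, 75.8 and 81.3 CPM in WT NX against 121, 97.5, 97.1, 56.4 and 49.6 in 5XFAD NX, and 55.7, 56.7, 58.4, 48.3 and 53.1 in WT CIH against 78, 60.4, 85.1, 106 and 129 in 5XFAD CIH. Libraries 5XFAD NX 4 and 5 fell below the WT NX range, near the WT CIH libraries. The membrane anchors Sdhc and Sdhd had 0.76 ± 0.13 (adjusted p = 2.95e-04) and 0.60 ± 0.12 (adjusted p = 0.00108) in CIH males. In CIH females Sdhc had 0.29 ± 0.07 (adjusted p = 0.00278), and Sdhd had 0.19 ± 0.07 (adjusted p = 0.0263), which scaling by library size alone turned to −0.0047.

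In complex III the values differed among subunits. The hinge protein Uqcrh and the small accessory subunits Uqcr11, Uqcrq and Uqcr10 had values from 0.84 to 1.30 in CIH females and from 1.61 to 2.03 in CIH males. Uqcrb, another accessory subunit, had 0.34, which did not pass, in CIH females and 1.25 in CIH males. Uqcrh was at 42.3, 32.4, 39.5 and 35.2 CPM in WT NX against 86.3, 86.5, 60.5, 31.3 and 88.1 in 5XFAD NX, and 34.8, 33.1, 30.7, 36 and 34.8 in WT CIH against 99.8, 73.1, 58.8, 91.4 and 90.3 in 5XFAD CIH in females. In males it was at 54.4, 58.8, 44, 74.1 and 64.9 CPM in WT NX against 181, 179, 185, 79.1 and 79.2 in 5XFAD NX, and 41.9, 38.7, 39.5, 44 and 44 in WT CIH against 125, 118, 158, 175 and 247 in 5XFAD CIH. Its male groups did not overlap between the genotypes in either treatment, while female 5XFAD NX 4 fell below the WT NX range. The log2FC of Uqcrh was 1.30 ± 0.12 (adjusted p = 1.73e-06) in CIH females and 1.99 ± 0.17 (adjusted p = 3.63e-07) in CIH males. For Uqcr11 it was 0.91 ± 0.18 (adjusted p = 8.62e-04) and 2.03 ± 0.24 (adjusted p = 9.15e-06). The Rieske iron-sulfur protein Uqcrfs1 had 0.58 ± 0.08 (adjusted p = 7.08e-05) and 0.90 ± 0.12 (adjusted p = 2.35e-05). The core protein Uqcrc1 had 0.59 ± 0.11 (adjusted p = 4.78e-04) in CIH males, and its partner Uqcrc2 had 0.45 ± 0.09 (adjusted p = 9.45e-04).

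Cyc1, the cytochrome that hands electrons to cytochrome c, had small values in females. It was at 59.2, 59.3, 62.6 and 58.9 CPM in WT NX against 61.6, 60.6, 58.4, 47.8 and 58.4 in 5XFAD NX, and 58.9, 54.4, 58, 56.6 and 56.1 in WT CIH against 66.5, 57.1, 62.1, 62.6 and 63.4 in 5XFAD CIH. The female groups overlapped in NX and in CIH, and 5XFAD NX 4 was the lowest library of all. The log2FC of Cyc1 was 0.15 ± 0.05 (adjusted p = 0.0323) in CIH females, which turned to −0.05 when scaled by library size alone, and that of Uqcrc1 was 0.19 ± 0.06 (adjusted p = 0.0184), which turned to −0.0030. In males Cyc1 was at 71.9, 77.5, 70.9, 114 and 95.2 CPM in WT NX against 119, 94.5, 96.7, 56 and 55.4 in 5XFAD NX, and 74.6, 61.9, 61.3, 59.7 and 60.4 in WT CIH against 88, 64.7, 93.4, 111 and 144 in 5XFAD CIH. There it had 0.66 ± 0.16 (adjusted p = 0.00411) in CIH.

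In complex IV the forms found in most tissues were all called higher in 5XFAD under CIH, in both sexes. Cox4i1, the regulatory subunit, was at 131, 107, 136 and 109 CPM in WT NX against 259.7, 262, 184, 95.5 and 252 in 5XFAD NX, and 108, 91.7, 104, 117 and 127 in WT CIH against 295, 215, 187, 249 and 265 in 5XFAD CIH in females. In males it was at 164, 203, 195, 278 and 230.1 CPM in WT NX against 549, 517, 570.3, 214 and 205 in 5XFAD NX, and 131, 124, 130.2, 122 and 124 in WT CIH against 392, 349, 462, 521 and 709 in 5XFAD CIH. The male WT CIH libraries lay within 10 CPM of each other and below all others. Its log2FC was 1.16 ± 0.12 (adjusted p = 3.69e-06) in CIH females and 1.95 ± 0.16 (adjusted p = 1.99e-07) in CIH males. Cox8a, a small membrane subunit, had 1.14 ± 0.11 (adjusted p = 2.25e-06) and 2.09 ± 0.20 (adjusted p = 1.08e-06). Male Cox8a ran from 42.9 to 53.2 CPM in WT CIH and from 133 to 335 CPM in 5XFAD CIH. Cox7a2l, which helps complexes III and IV join into supercomplexes, had 1.22 ± 0.12 (adjusted p = 1.70e-06) and 1.78 ± 0.12 (adjusted p = 3.71e-08). Its male values were 151, 144, 162, 190.1 and 164 CPM in WT NX against 369, 381, 394, 207 and 190.4 in 5XFAD NX, and 101, 100.4, 103, 92.2 and 106 in WT CIH against 318, 287, 304, 356 and 456 in 5XFAD CIH. Here 5XFAD NX 4 and 5 were just above or level with the highest WT NX library. Cox6b1 had 1.87 ± 0.18 (adjusted p = 1.55e-06) in CIH males and Cox6c had 1.70 ± 0.20 (adjusted p = 8.90e-06). Cox7a2, Cox7b and Cox7c had 1.56, 1.43 and 1.55, and Cox5a and Cox5b, which hold structural places beside the catalytic core, had 1.21 and 1.58.

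In complex V the catalytic F1 subunits Atp5a1 and Atp5b lay below the complex V median, with 0.45 ± 0.07 (adjusted p = 1.96e-04) and 0.65 ± 0.08 (adjusted p = 2.86e-05) in CIH females. In CIH males Atp5a1 had 0.57 ± 0.08 (adjusted p = 3.88e-05) and Atp5b had 0.95 ± 0.09 (adjusted p = 8.75e-07). Male Atp5b was at 295, 346, 376, 353 and 352 CPM in WT NX against 522, 449, 518, 332 and 302 in 5XFAD NX, and 243, 255, 246, 232 and 245 in WT CIH against 433, 436, 437, 504 and 536 in 5XFAD CIH. Among the small subunits, Atp5mpl, a proteolipid of the membrane part, had 1.17 ± 0.15 (adjusted p = 2.31e-05) and 1.96 ± 0.19 (adjusted p = 1.24e-06). Atp5e, of the central stalk, had 1.05 ± 0.15 (adjusted p = 6.56e-05) and 1.84 ± 0.21 (adjusted p = 5.47e-06). The males held Atp5e at 59.8, 70.0, 50.2, 84.5 and 76 CPM in WT NX against 150.1, 128, 156, 68.4 and 61.4 in 5XFAD NX, and 45.9, 41.1, 40.4, 39 and 35.9 in WT CIH against 114, 90.5, 128, 147 and 244 in 5XFAD CIH. Among the other stalk and membrane genes, Atp5j2, Atp5k and Atp5l (subunits f, e and g of the membrane part) had 0.89, 0.77 and 0.85 in CIH females and 1.56, 1.74 and 1.08 in CIH males, all called. Atp5d, of the central stalk, and Atp5h and Atp5j, of the peripheral stalk, had 0.61, 0.73 and 0.54 in CIH females and 1.52, 1.36 and 1.30 in CIH males. The 3 genes of the c ring, which encode the same mature protein, differed: Atp5g2 had 1.75 ± 0.16 (adjusted p = 7.57e-07) in CIH males, Atp5g1 1.32 ± 0.17 (adjusted p = 2.35e-05) and Atp5g3 1.03 ± 0.18 (adjusted p = 3.00e-04). In CIH females Atp5g3 had 0.41, below both catalytic subunits. Atp5g2 was 55.5% ± 2.17 of the Atp5g FPKM in WT CIH and 66.8% ± 0.974 in 5XFAD CIH males, and 51.3% ± 1.76 and 58.5% ± 3.15 in females (SD, n = 5 each). Usmg5, the male name of Atp5md, was at 29.4 ± 6.07 CPM in WT NX males, 16.4 ± 1.74 in WT CIH males, 43.1 ± 17.2 in 5XFAD NX males and 54.5 ± 22.5 in 5XFAD CIH males (SD, n = 5 each).

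Across the chosen genes, shorter ones had the larger values. Spearman's rho between log2FC and gene length was −0.57 over 43 genes in CIH females and −0.49 over 43 genes in CIH males, against −0.06 and −0.23 over all genes tested. The genes share libraries, so these are descriptions. The tested genes had a median length of 754 bases in females and 1675 in males (the tables measure length differently). In 18 of the 48 male rows another annotated gene overlaps, in 14 on the opposite strand.

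The balance of the complexes was read from sums within each library. Summed over its genes, complex II was at 295 ± 20.7 CPM in WT CIH and 367 ± 24.3 CPM in 5XFAD CIH females, and complex IV at 520.0 ± 48.2 and 1150.2 ± 189 CPM (SD, n = 5 each). In males complex II was at 308 ± 9.76 and 441 ± 62.7 CPM, and complex IV at 559 ± 15.3 and 2110.4 ± 709 CPM. The ratio of complex IV to complex II, which does not depend on library scaling, was 1.76 ± 0.0540 in WT CIH and 3.12 ± 0.359 in 5XFAD CIH females. In NX females it was 1.78 ± 0.113 in WT (n = 4) and 2.74 ± 0.627 in 5XFAD (n = 5). Female 5XFAD NX 4, at 1.72, lay within the WT NX range, and without it the 5XFAD NX value was 2.99 ± 0.301 (n = 4). In males it was 2.42 ± 0.307 in WT NX against 3.91 ± 0.975 in 5XFAD NX, and 1.82 ± 0.0652 in WT CIH against 4.69 ± 0.860 in 5XFAD CIH. Without 5XFAD NX 4 and 5 the 5XFAD NX value was 4.62 ± 0.159 (n = 3). Without Cox6a2 but with all libraries the male values were 2.41, 3.71, 1.81 and 4.42 in the same order, so the ratio did not rest on that gene.

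**Figure D3:**
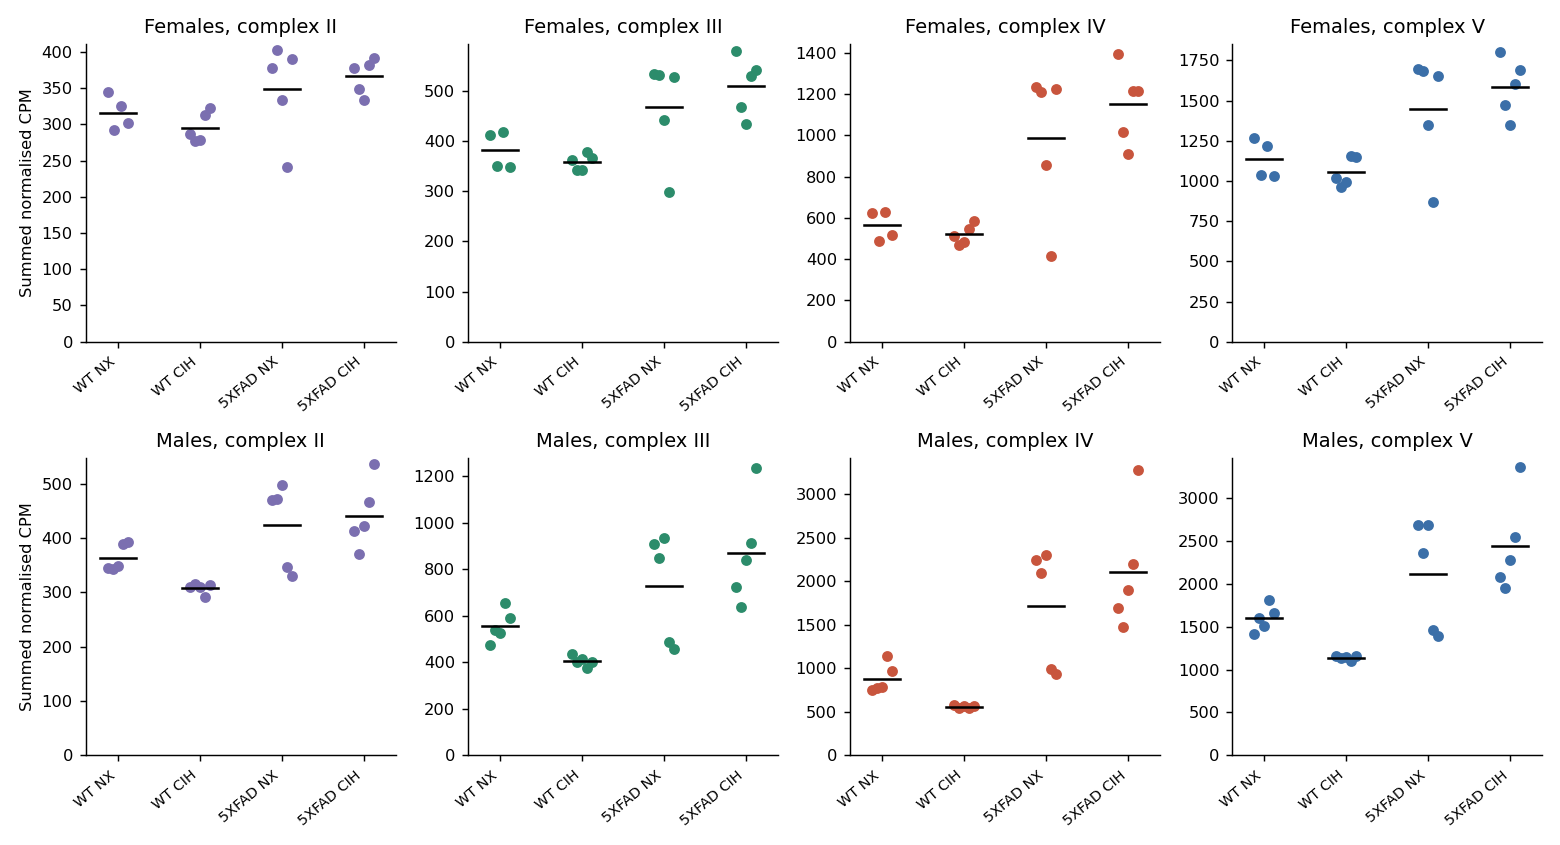
Summed TMM-scaled CPM of the genes of each complex in each library, with group means as lines, females in the top row and males in the bottom row, and axes starting at 0. Complex IV of males runs from 540.2 CPM in WT CIH to 3286 CPM in 5XFAD CIH, and in complex IV 1 female 5XFAD NX library lies below every WT female.

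Because most of the genes moved together, their promoters were read for shared motifs. Promoter windows (250 bases before to 50 after the start) of 36 of the 48 symbols were found in RefSeq's table for GRCm38.p6. Both strands were searched for NRF1 (GCATGCGC), ETS (CCGGAAG, the core read by GABP), YY1 (AAGATGGC), SP1 (GGGCGG) and the cores of the hypoxia response element (ACGTG and GCGTG). NRF1 and GABP are known regulators of nuclear respiratory genes. NRF1 letters stood in 7 of 36 genes (19.4%) against 3.05% of all 27025 genes, and ETS letters in 13 (36.1%) against 9.93%. YY1 letters stood in 3 (8.33%, all genes 3.19%), SP1 in 14 (38.9%, all genes 38.2%), ACGTG in 11 (30.6%, all genes 21.8%) and GCGTG in 22 (61.1%, all genes 35.2%). By complex, NRF1 letters stood in 1 of 3 genes of II, 2 of 5 of III, 1 of 13 of IV and 3 of 15 of V. ETS letters stood in 2 of 3, 2 of 5, 3 of 13 and 6 of 15. The 13 of complex IV include the low Cox6b2, Cox7a1, Cox7b2 and Cox8b and lack Cox6a2, Cox4i1 and Cox6c. The link between motifs and fold changes was not tested. The windows shown were picked to print matches (Cox6a1, Cox8a and Uqcrh) beside a window with neither (Sdha), and do not stand for the genes as a whole. Capitals mark NRF1 and ETS matches on either strand, and in Cox6a1 the NRF1 letters match both strands at overlapping positions. Among genes with low values, Sdhb, with a log2FC of 0.31 in CIH females and 0.76 in CIH males, also holds both NRF1 and ETS letters, and Sdhd holds ETS letters. The windows are Cox6a1 (chr5:115348909-115349208, minus strand), Cox8a (chr19:7217567-7217866, minus strand), Uqcrh (chr4:116075021-116075320, minus strand) and Sdha (chr13:74350191-74350490, minus strand).
Cox6a1: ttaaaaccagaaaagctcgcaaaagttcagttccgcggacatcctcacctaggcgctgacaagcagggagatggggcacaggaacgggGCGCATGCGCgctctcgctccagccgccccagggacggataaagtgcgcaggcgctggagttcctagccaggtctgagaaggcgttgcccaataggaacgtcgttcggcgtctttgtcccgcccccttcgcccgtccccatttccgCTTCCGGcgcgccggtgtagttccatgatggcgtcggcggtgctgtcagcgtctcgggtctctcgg
Cox8a: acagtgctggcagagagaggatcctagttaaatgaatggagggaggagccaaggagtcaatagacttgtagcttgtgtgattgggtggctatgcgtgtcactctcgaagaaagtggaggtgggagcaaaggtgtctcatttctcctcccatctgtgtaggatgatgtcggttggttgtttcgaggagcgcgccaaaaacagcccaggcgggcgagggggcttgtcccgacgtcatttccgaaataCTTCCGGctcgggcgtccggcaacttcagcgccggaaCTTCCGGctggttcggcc
Uqcrh: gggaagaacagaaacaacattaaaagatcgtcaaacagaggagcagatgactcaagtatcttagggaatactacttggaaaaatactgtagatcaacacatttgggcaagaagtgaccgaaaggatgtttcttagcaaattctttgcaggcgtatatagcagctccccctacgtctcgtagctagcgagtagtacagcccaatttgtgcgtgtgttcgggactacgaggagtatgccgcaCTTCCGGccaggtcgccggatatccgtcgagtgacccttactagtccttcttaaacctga
Sdha: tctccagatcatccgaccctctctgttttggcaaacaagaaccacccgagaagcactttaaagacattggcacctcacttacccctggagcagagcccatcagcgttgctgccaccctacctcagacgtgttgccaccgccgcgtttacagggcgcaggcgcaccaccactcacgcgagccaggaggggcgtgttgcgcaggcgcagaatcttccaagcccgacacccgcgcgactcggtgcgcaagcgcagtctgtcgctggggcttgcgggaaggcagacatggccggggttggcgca

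In NX-exposed females (WT NX vs 5XFAD NX), 3 of 43 genes were called higher (7.26% of 14513 genes): Cox6a2, Uqcrh with 0.91 ± 0.27 (adjusted p = 0.0486), and Cox7a2l with 0.99 ± 0.29 (adjusted p = 0.0491). Of the rest 37 were positive and 3 negative (Cyc1 −0.06, Cox6b2 −0.07 and Atp5pb −0.02), and the median over all was 0.40. That median was 0.20 with library size alone, 0.17 with limma, 0.25 with the length trend removed and 0.21 with length and expression trends removed. Without 5XFAD NX 4, the library with WT-like Cst7, 33 genes were called higher (21.8% of 14149 genes) and the median was 0.55. Then 1 of 4 genes of complex II, 6 of 9 of III, 12 of 13 of IV and 14 of 17 of V were called, and the medians were 0.19, 0.46, 0.67 and 0.57. Uqcrh had 1.09 ± 0.13 (adjusted p = 1.68e-04) and Cox7a2l 1.19 ± 0.13 (adjusted p = 1.16e-04) in that fit. Leaving out any one of the other 8 libraries left 0 or 1 gene called. Border macrophage markers summed to 165 to 313 CPM in WT NX and 79.9 to 151 CPM in 5XFAD NX females, without overlap. Pericyte and smooth muscle markers had medians of 25.9 and 87.1 CPM, and endothelial markers 87.5 and 215 CPM. The libraries of the latter 2 lists overlapped, as did the microglia sums, and the part of these cells was not tested.

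In NX-exposed males 9 of 44 genes were called higher (10.4% of 14834 genes), 7 of them in complex IV, and 4 were DEGs (5.94% of all genes). The DEGs were Cox6a2, Cox6a1, Uqcrh with 1.25 ± 0.26 (adjusted p = 0.00521) and Cox8a with 1.01 ± 0.30 (adjusted p = 0.0318). The others were Cox7a2l with 0.93 ± 0.20 (adjusted p = 0.00717), Cox4i1 with 0.94 ± 0.29 (adjusted p = 0.0401), Cox7c with 0.83 ± 0.24 (adjusted p = 0.0313), Cox6c with 0.74 and Atp5mpl with 0.90. The median was 0.55 (0.31 with library size alone), and Cox6b2 (−0.18), Uqcrc1 (−0.04) and Cyc1 (−0.02) had the opposite sign. Leaving out WT NX 1, 2 or 3 or 5XFAD NX 3 left 3 genes called, 5XFAD NX 1 or 2 left 4, and WT NX 5 left 5, while leaving out 5XFAD NX 4 gave 20 and 5XFAD NX 5 gave 22. An alternative left out 5XFAD NX 4 and 5, chosen after seeing the data by their low values in these same genes. A rise in calls follows from that choice. Without them 37 genes were called higher (17.9% of 14299 genes), with a median of 0.90. The medians were then 0.43 in complex II, 0.64 in III, 1.18 in IV and 0.84 in V. In both sexes complex II had the lowest median and complex IV the highest, with and without these libraries. Cell type markers also differed between WT NX and 5XFAD NX males. Microglia markers summed to 34409 to 36549.9 and 23774 to 33197 CPM, and astrocyte markers to 134 to 185 and 373 to 1009 CPM. Pericyte and smooth muscle markers summed to 12.2 to 60.7 and 76.9 to 90.9 CPM, and border macrophage markers to 214 to 294 and 91.1 to 137 CPM. These did not overlap, endothelial and oligodendrocyte sums did, and their part was not tested.

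CIH lowered the respiratory genes of WT males. In WT NX vs WT CIH all 43 tested values were negative and 37 genes were called lower (15% of 14983 genes), while none was higher. Called were 3 of 4 in complex II, 9 of 9 in III, 11 of 14 in IV and 14 of 16 in V, and the medians were −0.37, −0.50, −0.68 and −0.56. In 25 genes every WT CIH library was below every WT NX library, against 9.12% of all genes. The median over all was −0.55 (a fold of 0.683), against −0.01 for all genes tested. The lowest adjusted p in each complex were −0.42 ± 0.08 (adjusted p = 0.00196) for Sdhb, −0.66 ± 0.12 (adjusted p = 0.00117) for Uqcrq, −0.69 ± 0.09 (adjusted p = 2.66e-04) for Cox7a2l and −0.78 ± 0.09 (adjusted p = 2.66e-04) for Atp5g2. Cox4i1 had −0.76 ± 0.11 (adjusted p = 3.76e-04), Atp5mpl −0.68 ± 0.10 (adjusted p = 4.26e-04) and Atp5b −0.50 ± 0.08 (adjusted p = 5.48e-04). Sdha, at −0.06 ± 0.07 (adjusted p = 0.551), was the least moved. Atp5g2 was at 86.7, 94.4, 92.2, 118 and 111 CPM in WT NX and 61.6, 58.5, 60.9, 58.4 and 54.1 in WT CIH males, and Atp5mpl at 29.5, 31.3, 30.8, 38.3 and 34.7 and 21, 18.8, 21, 20.7 and 21.4. Neither gene overlapped between the 2 groups.

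That call depends on how the spread was estimated. With all 4 male groups in one fit, which share one estimate of the spread, 0 genes passed edgeR's quasi-likelihood test, 31 had an unadjusted p below 0.05 and the median stayed at −0.55. Fitted on the 2 WT groups, the likelihood ratio test called 38, DESeq2 37 and limma 34. With the gene-length trend removed, 19 were called and the median was −0.31. Other values moved with these libraries. The microglia markers summed to 34409 to 36549.9 CPM in WT NX males and 27529 to 32129 CPM in WT CIH males, which did not overlap. The neutrophil markers had medians of 394 CPM in WT NX (libraries 203 to 1097) and 115 CPM in WT CIH (libraries at 276 or less), with overlap, and the astrocyte markers 152 CPM (libraries 134 to 185) and 213 CPM (libraries 156 to 225). The part of these cells was not tested. Ribosomal protein genes took 1.54% to 1.68% of counts in WT CIH males, 2.21% to 3.04% in WT NX males and 2.64% to 6.19% in male 5XFAD libraries, and their part in the result was not tested. In females they took 1.19% to 1.66% in WT and 1.26% to 3.51% in 5XFAD libraries, with overlap only through 5XFAD NX 4 at 1.26%. The slope of expression on gene length ran from −0.03 to 0.33 in WT CIH males (log2 units per 10-fold length) and from −0.15 to 0.12 in WT NX males.

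WT females showed no called change with CIH. In WT NX vs WT CIH females 0 of 43 genes passed edgeR's quasi-likelihood test (0% of 14583 genes, either direction), 0 had an unadjusted p below 0.05, and the likelihood ratio test, DESeq2 and limma called 0. The median was −0.11, with 39 of 43 values negative and Atp5k, Cox6b2, Atp5g1 and Atp5j positive. In 5XFAD NX vs 5XFAD CIH females the same tools called 0 of 43 (0% of 14578 genes), with 0 at an unadjusted p below 0.05. The median was 0.20, and 0.05 without 5XFAD NX 4. In 5XFAD males 0 of 45 genes passed (0% of 14334 genes), 1 had an unadjusted p below 0.05 (Cox8b, −2.42), and the likelihood ratio test, DESeq2 and limma called 0. Cox8b passed the filter on low values only through 5XFAD NX libraries (up to 1.94 CPM), the group where it was higher, so its value is no support for a change. The median was 0.24, or −0.06 without 5XFAD NX 4 and 5.

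Whether the genotype effect itself differed between CIH and NX was tested as an interaction. In females 0 of 43 genes passed (0% of 15582 genes), with 2 at an unadjusted p below 0.05, a median of 0.27 (0.14 without 5XFAD NX 4) and 0 by the likelihood ratio test, DESeq2 and limma. In males 0 of 45 passed edgeR's quasi-likelihood test (0% of 15813 genes), but 33 had an unadjusted p below 0.05. The median was 0.78, and the lowest adjusted p was 0.117. The likelihood ratio test called 1 gene, DESeq2 called 16 and limma 0. Without the filter on low counts 29 passed, and without 5XFAD NX 1 alone 9 passed. Without 5XFAD NX 4 and 5 the median was 0.45, 0 passed and 22 had an unadjusted p below 0.05.

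**Figure D4:**
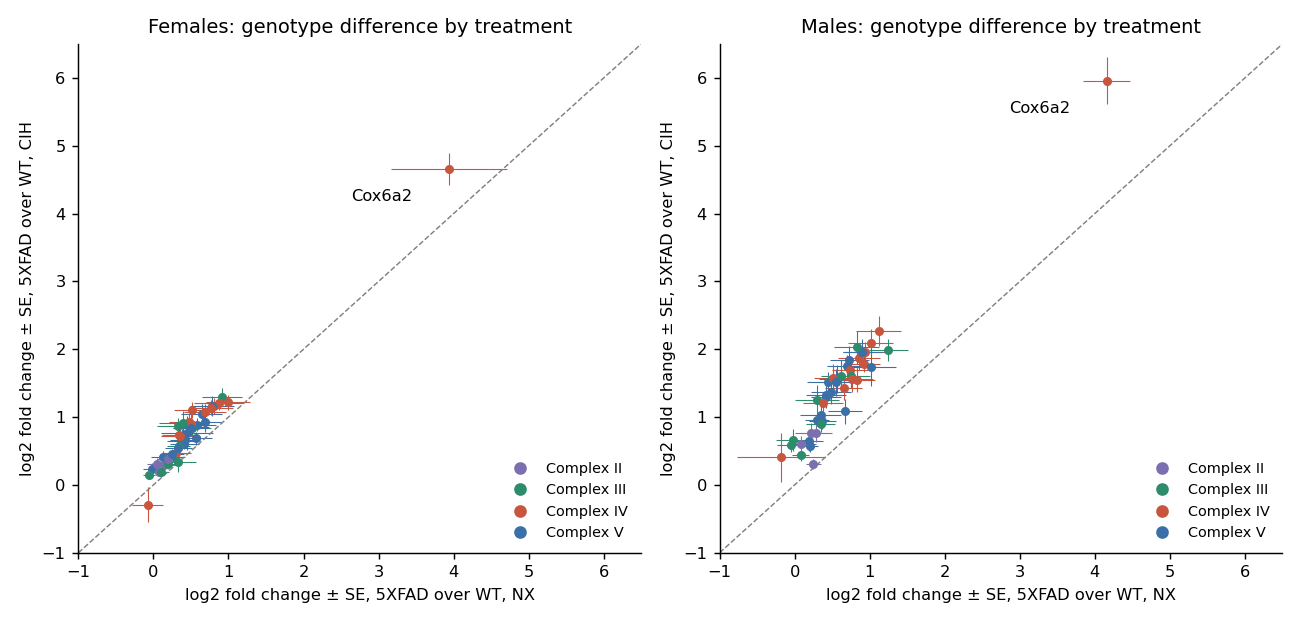
log2 fold change ± SE of 5XFAD over WT in CIH (vertical) against NX (horizontal) for each gene tested in both, females left and males right, coloured by complex, with the line of equal values dashed. Points of both sexes lie mostly above the line; the interaction that tests this difference called 0 genes in either sex by edgeR's quasi-likelihood test, while in males DESeq2 called 16.

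The rest of the chain followed the same directions in CIH. Of 37 listed nuclear subunits of complex I, 28 of 37 tested were higher in 5XFAD females (26.2% of all genes), with a median log2FC of 0.58, and 33 of 36 in 5XFAD males (25.3% of all genes), with a median of 1.20. Ndufa1, a small membrane-arm subunit, led both, with 2.18 ± 0.18 (adjusted p = 3.96e-07) and 2.87 ± 0.28 (adjusted p = 1.61e-06). In WT NX vs WT CIH males 23 of 36 complex I genes were lower (15% of all genes) and 1 higher (13.6% of all genes), with a median of −0.49, and Ndufa13 had −0.83 ± 0.11 (adjusted p = 2.66e-04). In NX, 0 of 37 passed in females (edgeR's quasi-likelihood test, 4 at an unadjusted p below 0.05, median 0.24), where 7.26% of all genes were higher. In NX males 1 of 36 passed (Ndufa1, 1.76 ± 0.32 (adjusted p = 0.00191)), where 10.4% of all genes were higher. Without the libraries that stood apart, 22 of 37 complex I genes were higher in NX females (21.8% of all genes, median 0.40) and 28 of 36 in NX males (17.9% of all genes, median 0.69). The mitochondrially encoded subunits of complexes III to V could be tested in males. All 5 tested were higher in 5XFAD CIH (median 1.38) and lower in WT CIH (median −0.64), with mt-Co1, the catalytic core of complex IV, at 1.12 ± 0.09 (adjusted p = 1.49e-07) and mt-Cytb at 1.29 ± 0.14 (adjusted p = 5.01e-06) in CIH males. In NX males 1 of the 5 passed (5 at an unadjusted p below 0.05, median 0.64), and 5 of 5 without 5XFAD NX 4 and 5 (median 0.99). In WT NX vs WT CIH males mt-Cytb had −0.63 ± 0.11 (adjusted p = 7.71e-04). With all 4 male groups in one fit, no gene of these lists or of the assembly, carrier, regulator and other mitochondrial lists passed edgeR's test for CIH in WT males (0 of 36 in complex I, 18 at an unadjusted p below 0.05, and 0 of 5 mitochondrially encoded, 5 at an unadjusted p below 0.05).

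Assembly factors are read against the same shares of all genes in CIH, 26.2% higher and 25.7% lower in females and 25.3% higher and 23.7% lower in males. For complex IV, 4 of 20 tested factors were higher and 2 lower in CIH 5XFAD females, a share called higher below that of all genes, and 12 higher and 1 lower in CIH 5XFAD males. Coa5 had 1.00 ± 0.08 (adjusted p = 3.56e-07) and 0.86 ± 0.10 (adjusted p = 5.78e-06), and it was also called in NX, at 0.88 ± 0.23 (adjusted p = 0.0386) in females and 0.98 ± 0.11 (adjusted p = 6.72e-05) in males. Without the libraries that stood apart its NX values were 1.04 ± 0.09 (adjusted p = 2.53e-05) and 0.87 ± 0.10 (adjusted p = 1.26e-05). For complex III, Uqcc2 was the single factor of 6 called in CIH females (0.64 ± 0.14 (adjusted p = 0.0021)), and in CIH males Uqcc2 (1.64 ± 0.20 (adjusted p = 1.30e-05)) and Uqcc3 (1.08 ± 0.18 (adjusted p = 2.49e-04)) were called. Of 4 complex II factors, 0 passed edgeR's test in CIH females (0 at an unadjusted p below 0.05) and Sdhaf4 passed in CIH males (0.70 ± 0.24 (adjusted p = 0.0257)), while Sdhaf1 was lower in NX females (−0.37 ± 0.10 (adjusted p = 0.0444), and −0.35 ± 0.11 (adjusted p = 0.0228) without 5XFAD NX 4), where 6.61% of all genes were lower. For complex V, 3 of 7 were higher in CIH females and 3 of 6 in CIH males, led by Tmem242 (0.78 ± 0.14 (adjusted p = 4.71e-04) and 1.47 ± 0.17 (adjusted p = 6.87e-06)). In WT males CIH lowered 7 of 20 complex IV, 1 of 6 complex III and 3 of 6 complex V factors (15% of all genes were lower), and raised 1 complex IV factor (13.6% of all genes were higher).

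Of 4 tested carriers and supercomplex factors, 3 were higher in CIH females (26.2% of all genes) and 4 in CIH males (25.3%), with Ndufa4, a complex IV subunit despite its name, at 0.29 ± 0.10 (adjusted p = 0.022) and 1.12 ± 0.18 (adjusted p = 1.41e-04). In WT males CIH lowered 3 of the 4 (15% of all genes), with Higd2a at −0.79 ± 0.12 (adjusted p = 4.21e-04). Other mitochondrial genes, such as the chaperones Hspd1 and Hspe1, were higher in 11 of 12 cases in CIH 5XFAD mice of either sex (26.2% and 25.3% of all genes), with medians of 0.39 and 0.73, and 6 of 12 were lower with CIH in WT males (15% of all genes). Of the transcriptional regulators of mitochondrial biogenesis, 5 of 11 were lower and 1 higher in CIH 5XFAD females (25.7% of all genes were lower). In CIH 5XFAD males 4 of 11 were lower (23.7% of all genes). Gabpb1, a subunit of the ETS factor GABP, had −0.53 ± 0.07 (adjusted p = 4.64e-05) and −0.39 ± 0.10 (adjusted p = 0.00489). In NX females Esrra, an orphan receptor that drives respiratory genes, had −0.47 ± 0.09 (adjusted p = 0.0191), and −0.55 ± 0.07 (adjusted p = 2.37e-04) without 5XFAD NX 4. In WT males CIH raised 1 of 11 regulators and lowered 0, where 13.6% of all genes were higher. That gene was Gabpa, at 0.48 ± 0.13 (adjusted p = 0.0115).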

How the data were processed

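Bulk mRNA of the microglia libraries (groups of 4 or 5, described by the study as independent samples) was sequenced in paired ends on an Illumina NovaSeq. The submitters' processing notes name HISAT2 and GRCm38/mm10, without versions; the counting tool, its strand setting and the annotation are not given in the sources used here. The authors deposited raw read counts per gene and FPKM for females and males in separate tables. The female FPKM equals the counts over the library total and gene length, while the deposited male FPKM carries a further factor for each library, so FPKM was used only for shares within a library and for 1 alternative test. The labels and the study's methods do not give the same O2 minimum and daily hours, and the labels' values are used.

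Counts were tested on each whole table in edgeR 4.0.16 (R 4.3.3) with TMM factors and glmQLFTest, within the 2 groups compared, or over the 4 groups of a sex for the interaction. Genes needed CPM above 1 in at least 3 libraries, and calls used FDR 0.05 with or without a log2FC beyond 1. The columns of other samples left unused numbered 0. Of 76 pairs of libraries within a group none agreed within sampling noise (lowest chi-square per degree of freedom 4.86). The labels do not tie libraries to single mice, so the p-values measure the spread between these samples. The functions were tested on simulated data.

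Alternatives were FDR 0.01, library size alone, DESeq2 size factors, no filter, at least 10 counts in every library, edgeR's likelihood ratio test, DESeq2 1.42.0, limma 3.58.1 on log2(FPKM + 1), all 4 groups in one fit, a replicate block, offsets that remove each library's trend on gene length or on length and expression, and leaving out each library. Fits without male 5XFAD NX 4 and 5, and of the other lists without the libraries that stood apart or with all 4 male groups, were chosen after seeing the data. The genes and lists were chosen with earlier results of these data known. Named genes are the DEGs, the 3 lowest adjusted p of each complex per comparison, paired isoforms, complex II, Uqcrfs1, Cyc1, Atp5a1 and Atp5b, genes of opposite sign, and 2 genes per other list. Usmg5, the Cox6a2 neighbours, Cst7 and P2ry12 were added after their values were seen. Motifs were exact matches on either strand of RefSeq promoter windows, with overlapping matches each counted.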

Additional observations from a re-analysis of the deposited data

Results flagged for a closer look

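Values far from the rest of their group were looked for in 184 groups of libraries, and 10 stood apart by Dixon's criterion. Chance alone meets it in about 1 in 20 groups, which is close to the share found, so the list shows no excess. The groups also share libraries. In females, 5XFAD NX 4 was lowest in Cyc1, at 47.8 CPM, and in the Cox6a2 share of Cox6a FPKM, at 3.48%, where the other 4 female 5XFAD NX libraries had 21.8% to 26.9%. Cyc1 was at 62.6 CPM in WT NX 3, and Cox7a2l at 79.5 CPM in WT CIH 3. In males, 5XFAD CIH 5 was highest in Cox6a2, at 223 CPM, and in Cox6a1, at 491 CPM. In the male WT CIH group single libraries stood apart in Cyc1 (74.6 CPM in WT CIH 1), Sdhd (57.3 CPM in WT CIH 5), Atp5mpl (18.8 CPM in WT CIH 2) and summed complex II (291 CPM in WT CIH 4).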

How the results depend on the processing

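The genotype effect in CIH gave 37 to 42 called genes in females (reported count 41) and 41 in males (reported count 41) when any one library was left out, and the median log2FC stayed at 0.63 to 0.79 and 1.26 to 1.55. Asking for a log2FC beyond 1 left 10 in females. The female median of 0.73 became 0.53 with library size alone, 0.50 with limma, 0.43 with the length trend removed and 0.42 with length and expression trends removed. The male median of 1.43 became 1.03, 0.98 and 0.90 with library size alone and the same 2 trends removed. The NX counts were far less stable, and the cause was not tested. In NX females (reported count 3) they were 0 at FDR 0.01, 1 with a log2FC beyond 1, 1 with library size alone, 6 by the likelihood ratio test, 8 by DESeq2, 15 with 4 groups in one fit and 5 under both trend corrections, and 0 to 33 with one library left out. In NX males (reported count 9) they were 3 at FDR 0.01, 4 with a log2FC beyond 1, 16 with no filter, 17 by the likelihood ratio test, 19 by DESeq2, 4 by limma, 19 with 4 groups in one fit, 20 and 22 under the trend corrections, 37 without 5XFAD NX 4 and 5, and 3 to 22 with one library left out. For CIH in WT males (reported count 37) the log2FC beyond 1 left 1, 4 groups in one fit 0, and the trend corrections 19 and 18 (medians −0.31 and −0.26), while leaving out one library gave 32 to 38. The male interaction (reported count 0) reached 29 with no filter, 1 by the likelihood ratio test, 16 by DESeq2 and 0 to 9 with one library left out.

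With the replicate block the counts were 0 in NX females and 1 in NX males, and no other count of calls moved beyond 1.5 times. The numbers did not pair the libraries: same-number correlations ran from −0.49 to 0.35, and in no comparison was every pair over 0.1.

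Of single genes in the alternatives other than leaving out one library, 1344 values kept sign and call, 150 lost the call, 10 gained it and 22 changed sign. In CIH females these were Sdhd (−0.0047 with library size alone, −0.0028 with limma), Uqcrc1 (−0.0030 and −0.0028), Cyc1 (−0.045 and −0.0445) and Uqcrb (−0.12 under both trend corrections). In CIH males they were Sdha (−0.0689 with library size alone), Cox6b2 (−0.16 with the length trend removed) and Cox7a1, which was never called (−0.41 with library size alone, −0.0057 with no filter, −0.0089 by the likelihood ratio test, −0.013 by DESeq2, −0.0801 by limma, −0.0121 with 4 groups in one fit, −0.19 with the replicate block, −0.83 with the length trend removed, and −0.18 to 0.31 with one library left out). In WT males with CIH they were Cox7c (0.035 and 0.0513) and Sdhd (0.0094 and 0.026) under the trend corrections. Depth limits the rare isoforms, whose fold changes rest on few reads.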
